A study of Mus musculus with 96 samples.

Results

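Eng, Tbx3, Vim, Thy1 and Mcam are 5 of the 96 assays run on single cells sorted from mouse uterus for an epithelial surface protein. They were matched by symbol or by protein name (the panel lists Eng as cd105, Vim as vimentin, Thy1 as cd90 and Mcam as cd146) and were chosen from earlier results of the same Ct values, so what follows is a description with no test. All 5 were found in the panel, each in a minority of cells. As a group they did not mark 1 set of cells. Eng, Tbx3 and Vim tended to occur in the same cells, and those cells often lacked Epcam transcript, whereas Thy1 and Mcam showed little of this pattern. Nearly all of the shared cells lay at positions 8 to 10 when the cell numbers are read in runs of 12. Of the cells with Tbx3 and no Eng, 10 of 13 detected Epcam.

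The uterus was taken from mice 7 days after birth. Its tissue was dissociated with collagenase, and cells binding an antibody to CD326, the protein that Epcam encodes, were placed singly in the wells of a plate. The labels give 1 group of 96 cells, with no strain, genotype, treatment or control, and how many animals gave these cells is not stated. The cell is the unit of every count below, cells are not replicates of a condition, and no p-value was computed. A gene counted as detected in a cell when its cycle threshold (Ct, the PCR cycle at which product appears, so that a lower Ct means more template) was below 28. A cell detected 9 to 78 of the 96 assays, with a median of 54, and 4851 of the 9216 values (52.6%) were detected. In 8 cells Gapdh, the reference transcript, had a Ct above 18 or none, and cell 67 had no value in the assays listed as numbers 1 to 71 of the panel, which hold all of the group except Vim.

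Mesenchymal and epithelial cells are told apart by how they adhere and by the filaments they build. Epithelial cells hold together through adhesion proteins such as those encoded by Epcam and Cdh1 and carry keratins, while mesenchymal cells carry vimentin and a different set of surface proteins. In the developing uterus the epithelial tube, known for Wnt7a, Pax2 and Emx2 from its Müllerian origin, lies within a stroma known for Wnt5a, Hoxa10 and Hoxa11. Repressors of the SNAI and ZEB families, which shut down epithelial genes when cells turn mesenchymal, read the E-box CACCTG.

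The promoters of Eng and Vim are set beside that of Epcam because the lower share of Epcam detection in cells with Eng is the pattern that the values below turn on. Each window is the 250 bases before the RefSeq start of the gene on the plus strand of GRCm38.p6, at chr2:32646345-32646594 for Eng, chr2:13574061-13574310 for Vim and chr17:87635729-87635978 for Epcam. Capitals mark CACCTG or its reverse complement CAGGTG, searched on both strands.
Eng: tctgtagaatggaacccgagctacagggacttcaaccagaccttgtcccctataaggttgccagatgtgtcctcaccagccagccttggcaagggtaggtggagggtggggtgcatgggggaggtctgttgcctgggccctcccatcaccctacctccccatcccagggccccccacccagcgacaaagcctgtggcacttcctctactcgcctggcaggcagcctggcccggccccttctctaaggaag
Vim: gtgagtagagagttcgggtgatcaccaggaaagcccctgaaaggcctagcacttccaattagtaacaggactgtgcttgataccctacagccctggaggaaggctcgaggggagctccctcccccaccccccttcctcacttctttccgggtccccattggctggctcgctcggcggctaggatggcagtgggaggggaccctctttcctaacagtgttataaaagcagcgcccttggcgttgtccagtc
Epcam: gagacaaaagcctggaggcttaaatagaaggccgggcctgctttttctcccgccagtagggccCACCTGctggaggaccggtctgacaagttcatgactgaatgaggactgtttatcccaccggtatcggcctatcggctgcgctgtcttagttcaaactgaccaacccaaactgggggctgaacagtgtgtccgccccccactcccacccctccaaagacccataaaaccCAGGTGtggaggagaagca
The Epcam window held 2 such matches, beginning 187 and 19 bases before the start, and the Eng and Vim windows held 0. The window of Mcam, at chr9:44134408-44134657, held 1 at 212 bases before the start. Of 32851 promoter windows in the RefSeq table, 5657 (17.2%) held the motif, and of 7 genes looked up (the group, Epcam and Cdh1) 4 were matched. A match is a string of letters and not a measured binding site, and no factor was measured at these windows.

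Eng encodes endoglin, a co-receptor for ligands of the TGF-beta family that is best known from endothelium and mesenchymal stromal cells. It was detected in 13 of 96 cells (13.5%, exact 95% interval 7.41 to 22.0%, for counting error only, as for all intervals here). Its Ct was 17.5 in cell 81, 18.0 in cell 93, 18.2 in cell 57, 18.3 in cell 70, 19.3 in cell 3, 19.9 in cell 32 and 20.9 in cell 11. It was 22.3 in cell 30, 22.6 in cell 50, 22.9 in cell 58, 23.0 in cell 45, 24.4 in cell 21 and 25.7 in cell 8. These values spread over about 8 cycles, and 11 of the 13 lay below 24, so most Eng detections were far from the limit of detection. The mean level, taken as 28 minus Ct, was 6.99 ± 2.66 cycles (SD, n = 13 cells).

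Tbx3 encodes a T-box transcription factor that acts mainly as a repressor in developing organs. It was the most often detected of the group, in 22 cells (22.9%, interval 15.0 to 32.6%). Its Ct ran from 15.5 to 27.0 with a median of 18.3, the widest range of the 5 genes, and its mean level was 8.04 ± 3.72 cycles (SD, n = 22 cells). Vim encodes vimentin, the intermediate filament protein by which mesenchymal cells are usually recognised. It was detected in only 7 cells (7.29%, interval 2.98 to 14.4%), at Ct 22.6, 22.9, 23.7, 25.1, 25.5, 26.1 and 26.7. All Vim values were late, with 3 of 7 below 24 and a mean level of 3.35 ± 1.60 cycles (SD, n = 7 cells).

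Thy1 encodes a glycolipid-anchored surface protein of fibroblasts, neurons and T cells. It was detected in 17 cells (17.7%, interval 10.7 to 26.8%) at Ct 18.5 to 27.4, with a median of 23.8 and a mean level of 4.76 ± 2.70 cycles (SD, n = 17 cells). Thy1 was the gene of the group that the limit of 28 touched: 10 of its 17 values lay below 24, the latest detected one was 27.4, and 3 further cells recorded it at 28.2, 28.4 and 29.0 and count as not detected. Mcam encodes an adhesion protein of the immunoglobulin superfamily carried by endothelium, pericytes and smooth muscle. It was detected in 15 cells (15.6%, interval 9.02 to 24.5%), all below Ct 24, from 17.9 to 22.2 with a median of 19.6. Its mean level of 7.95 ± 1.42 cycles (SD, n = 15 cells) had the smallest spread of the group.

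**Figure D1:**
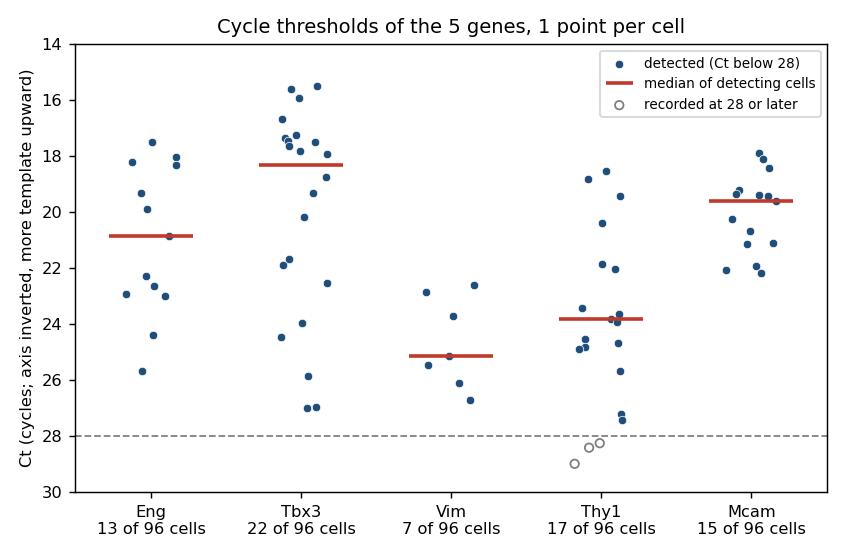
Ct of Eng, Tbx3, Vim, Thy1 and Mcam on an inverted axis in cycles, with 1 point per cell and a red bar at the median of the detecting cells. Vim and Thy1 lie lowest, with medians of 25.1 and 23.8, Tbx3 and Mcam lie at 18.3 and 19.6, and the dashed line is the limit of 28.

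How much template a cell gave did not separate the Eng, Vim or Mcam cells from the rest, but Tbx3 and Thy1 were found more often in cells with a low Gapdh Ct. In the 48 cells with the lowest Gapdh Ct against the other 48, Tbx3 was detected in 33.3% and 12.5%, and Thy1 in 25.0% and 10.4%. The same shares were 16.7% and 10.4% for Eng, 6.25% and 8.33% for Vim, and 14.6% and 16.7% for Mcam. The median number of assays detected was 54 in cells with and without Eng, 55.5 against 52 for Tbx3, 51 against 54 for Vim, 59 against 53 for Thy1 and 56 against 53 for Mcam.

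The 5 genes seldom met in 1 cell. There were 47 cells with at least 1 of them (49.0%, interval 38.6 to 59.4%), 15 with at least 2 (15.6%) and 10 with at least 3. Cells 81 and 93 detected 4, and no cell detected all 5 (0 of 96 cells). By a rough rule used for every limit on a count of 0 here, such a count allows up to 3 cells, or 3.12%. In cell 81 the 4 genes were Eng, Tbx3, Vim and Thy1, and in cell 93 they were Eng, Tbx3, Vim and Mcam. Of the 6 epithelial genes measured (Epcam, Cdh1, Cd24a and the keratin genes Krt8, Krt18 and Krt19), cells with at least 2 of the group detected 5.00 ± 0.93 (SD, n = 15 cells) and cells with none detected 5.41 ± 1.24 (SD, n = 49 cells). That difference of -0.41 genes was smaller than the spread between cells of either set, and 8 of the 49 cells with none detected at most 30 assays. Standardised over 3 strata of cells by number of assays detected, the difference was -0.69 genes. Across all alternatives it ran from -0.83 to -0.29.

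Among the 10 pairs, Eng with Tbx3 was the most frequent. Tbx3 was detected in 9 of the 13 cells with Eng (69.2%) and in 13 of the other 83 (15.7%), a phi coefficient of 0.44, where phi is the correlation of detection over the 96 cells. Vim was detected in 4 of the 13 cells with Eng (30.8%) and in 3 of the other 83 (3.61%), with a phi of 0.36. Tbx3 was detected in 5 of the 7 cells with Vim (71.4%) and in 17 of the other 89 (19.1%), with a phi of 0.32. No other pair was above 0.3, so Eng, Tbx3 and Vim were the genes of the group that went together. Nearly all of the shared cells lay at positions 8 to 10 when the cell numbers are read in runs of 12: 8 of the 9 with Eng and Tbx3, 4 of 4 with Eng and Vim, and 5 of 5 with Tbx3 and Vim. Vim with Mcam followed at 0.21, in 3 cells. The remaining 6 pairs, each with Thy1 or Mcam, had phi between -0.00 and 0.11 and shared 2 to 5 cells. Eng and Thy1 shared 3 cells, Eng and Mcam 2, Thy1 and Mcam 3, Tbx3 and Thy1 5, Tbx3 and Mcam 5, and Vim and Thy1 2.

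**Figure D2:**
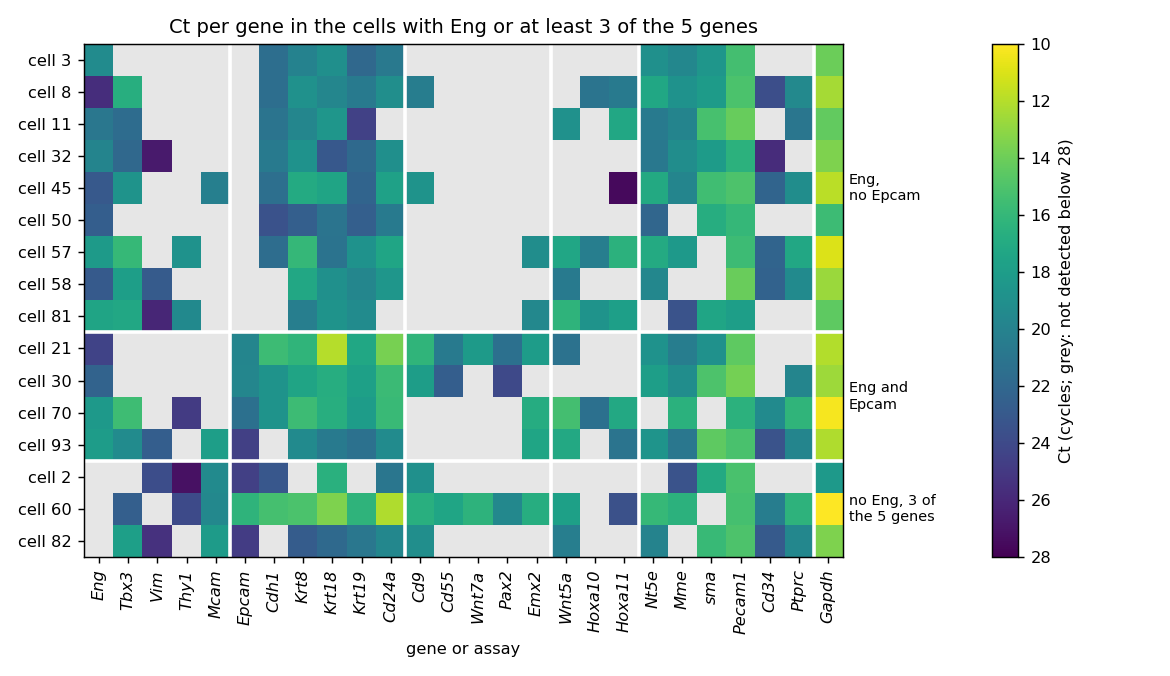
Ct in cycles (colour, lighter for more template and grey for not detected) of the 5 genes and of list genes in the 16 cells with Eng or at least 3 of the 5. In the upper block are 9 cells with Eng and no Epcam, all with Krt8, Krt18 and Krt19 and none with Wnt7a, Pax2 or Cd55; below them are 4 cells with Eng and Epcam, and 3 without Eng.

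Cells with Eng often lacked Epcam. Epcam, the gene of the sorted surface protein, was detected in 4 of the 13 cells with Eng (30.8%) and in 70 of the other 83 (84.3%), a difference of -53.6 percentage points (Newcombe 95% interval -72.7 to -25.1). Read the other way, Eng was detected in 9 of the 22 cells without Epcam (40.9%) and in 4 of the 74 with it (5.41%). Over 3 strata of cells by number of assays detected, the standardised difference was -55.0 points, so the gap was as large among cells of like depth. It narrowed to -35.7 points, with 7 Eng cells, among the 63 cells that detected each of the reference genes Gapdh, actin and Hprt.

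The other genes lower in cells with Eng were mostly surface and Müllerian genes rather than keratins. Cd9, a tetraspanin gene, was detected in 4 of the 13 cells with Eng against 73 of the other 83, and Cd55, which encodes a complement regulator, in 2 of 13 against 59 of 83. Their phi coefficients with Eng, -0.49 and -0.40, and that of Epcam, -0.44, were the lowest of 88 assays detected in 5 to 95% of cells. Wnt7a, a Wnt ligand of uterine epithelium, was detected in 1 of 13 against 51 of 83 (-53.8 points), and Pax2, a paired-box factor of the Müllerian duct, in 2 of 13 against 41 of 83 (-34.0 points). Emx2, the third gene of that list, was close in both sets, at 5 of 13 and 35 of 83. In all, 9 of the 95 other assays (9.47%) were lower by at least 25 points in cells with Eng: Epcam, Cd9, Cd55, Wnt7a, Pax2, Hopx, Itga6, Sox9 and Anpep. They included 1 of the 6 epithelial genes and 2 of the 3 Müllerian ones, and nothing is read from these counts, since the same cells served to choose Eng. The median difference was -1.67 points over the 6 epithelial genes and 3.61 over the 95 assays.

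The cells with Eng kept most epithelial transcripts. Krt8, Krt18 and Krt19, the keratins of simple epithelium, were detected in 13 of 13, Cd24a, a small surface sialoglycoprotein gene, in 11 of 13, and Cdh1, the gene of E-cadherin, in 10 of 13 against 75 of 83 (-13.4 points, interval -41.0 to 3.59). The 9 cells with Eng and no Epcam (cells 3, 8, 11, 32, 45, 50, 57, 58 and 81) detected 33 to 60 assays each. All 9 held Krt8, Krt18 and Krt19, 7 held Cdh1, 7 held Cd24a and 7 held Tbx3. Each of Wnt7a, Pax2 and Cd55 was found in 0 of these 9 cells (up to 33.3% by counting error). The 9 cells with neither gene and a Gapdh Ct of at most 18 gave similar counts for most of these genes, with Cdh1 in 8, Wnt7a in 2, Pax2 in 0 and Cd55 in 1. Tbx3 was in 2 of them against 7 and Hoxa11 in 3 against 5, differences between small sets that were not tested.

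What those cells held of Cdh1, Krt18 and Cd24a was less. Cdh1 had a median Ct of 21.2 (15.7 to 23.5) in the 10 cells with Eng that detected it and 17.3 in the 75 others. Relative to Gapdh in the same cell its level was -7.66 ± 1.97 cycles (SD, n = 10 cells) against -4.54 ± 1.85 (SD, n = 75 cells), a difference of -3.12 cycles, or 8.69-fold lower if each cycle doubles the product. Krt18 stood at a median Ct of 19.0 against 14.8, and its relative level was -5.89 ± 2.67 (SD, n = 13 cells) against -2.15 ± 2.66 (SD, n = 77 cells), 13.4-fold lower. For Cdh1 and Krt18 the difference exceeded the SD of either set. Cd24a was 7.36-fold lower (a difference of -2.88 cycles, n = 11 and 76 cells), with SDs of 1.67 and 1.82. The other keratins moved less, by -1.71 cycles for Krt19 and -0.38 for Krt8, the latter within the SD of 1.75 in cells without Eng. Of the 9 cells with neither Eng nor Epcam and a Gapdh Ct of at most 18, 8 detected Cdh1 and 8 detected Krt18. Their Cdh1 Ct was 16.2, 17.6, 19.2, 20.5, 21.6, 21.9, 22.2 and 22.8. Their Krt18 Ct was 14.8, 15.9, 16.7, 17.1, 18.9, 19.0, 21.1 and 22.9. Late values of both genes were thus not particular to cells with Eng, and the difference between these small sets was not tested.

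**Figure D3:**
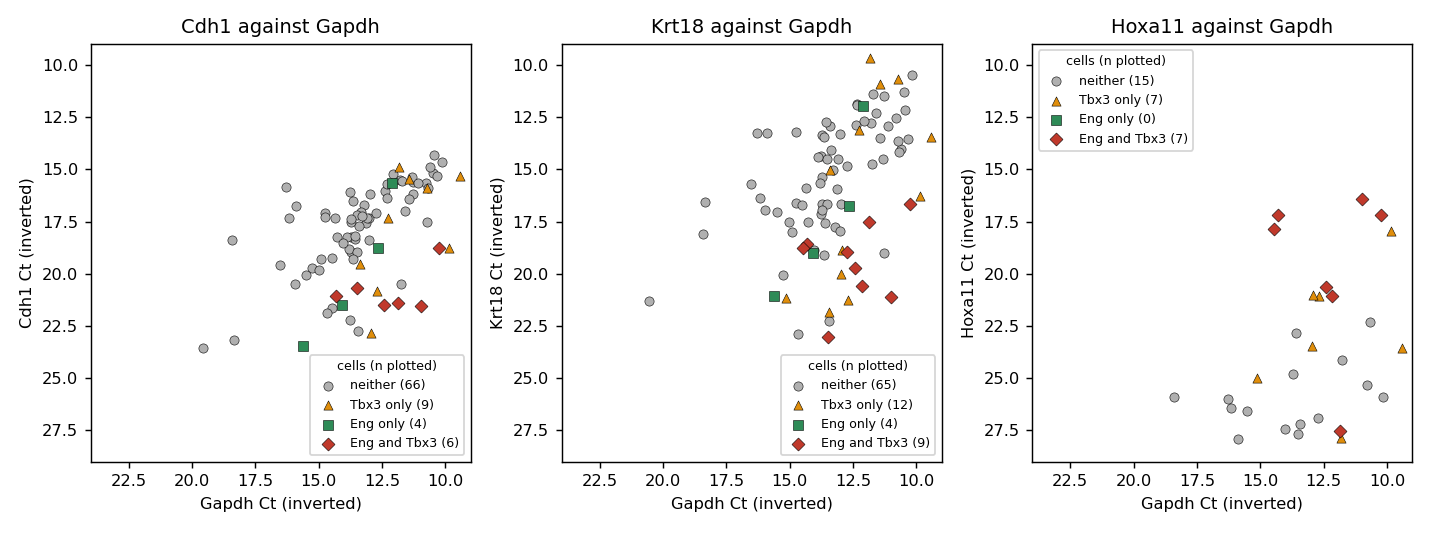
Ct of Cdh1, Krt18 and Hoxa11 against Gapdh Ct in the same cell, in cycles on inverted axes, with 1 point per cell that detected both and symbols for cells with Eng, Tbx3, both or neither. At like Gapdh Ct most cells with Eng and Tbx3 sit below the others for Cdh1 (median Ct 21.2 against 17.3 in cells with neither) and several sit above for Hoxa11 (median Ct 17.9).

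Genes associated with uterine stroma were found more often or at higher level in the cells with Eng, as they also were with Tbx3, Thy1 and, for Wnt5a, Mcam. Hoxa11, a homeobox gene of uterine patterning, was detected in 7 of 13 cells with Eng and 22 of the other 83 (27.3 points, interval 0.55 to 51.7). Its median Ct was 17.9 in those 7 cells and 25.6 in the 22, and relative to Gapdh it was 4.26 cycles higher, with SDs of 4.31 and 2.59. Hoxa10 was detected in 4 of 13 against 7 of 83 (22.3 points, interval 2.57 to 49.5). Wnt5a, a Wnt ligand of uterine mesenchyme, was detected in 7 of 13 against 33 of 83 (14.1 points, interval -12.9 to 39.1). Its median Ct was 17.3 against 21.0. Nearly all of these detections with Eng lay in the 9 cells that also held Tbx3. The 4 cells with Eng and no Tbx3 held Hoxa11 in 0, Hoxa10 in 0 and Wnt5a in 1. For these 3 genes together, the level summed per cell (28 minus Ct, 0 where not detected) ran from 0 to 31.1 with a median of 7.43 in cells with Eng, and from 0 to 31.3 with a median of 2.33 in the others. The ranges overlapped fully, and 4 of the 13 cells with Eng detected none of the 3. Assays higher by at least 25 points in cells with Eng numbered 11 of 95 (11.6%), among them Hoxa11, Tbx3, Vim, Itga5 and Itgb3, with 1 of the 3 stroma-associated genes. Itgb3, an integrin beta chain gene found in 5 of 13 cells with Eng and 8.43% of the others, had the highest phi with Eng (0.31) after Tbx3 and Vim.

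Other stromal and smooth muscle assays did not mark the cells with Eng. Nt5e was detected in 11 of 13 and 72 of 83, Mme in 11 of 13 and 62 of 83, and the assay sma in 10 of 13 and 60 of 83. Eng and Mcam are also carried by endothelium, and of 2 endothelial genes Pecam1 was detected in 13 of 13 cells with Eng and 80 of 83 others, at median Ct 15.2 and 15.3, and Cd34 in 7 of 13 and 42 of 83. The summed level of these 2 genes ran from 10.1 to 20.2 in cells with Eng and from 0 to 21.8 in the others, and each of the 13 cells with Eng detected at least 1 of the 2 genes, with Cd34 not detected in 6 of them. Ptprc, the only immune marker, was detected in 8 of 13 and 49 of 83. Endothelial and immune markers were thus found at similar shares with and without Eng, and whether their presence in sorted epithelial cells bears on these values was not tested.

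Cells with Tbx3, 9 of which also held Eng, detected Epcam, Cdh1 and Wnt7a less often than the others and the stroma-associated genes more often. Epcam was detected in 12 of the 22 cells with Tbx3 (54.5%) and 62 of the other 74 (83.8%), a difference of -29.2 points (interval -50.2 to -8.17), or -35.9 standardised for depth. Cdh1 was detected in 15 of 22 against 70 of 74 (-26.4 points, interval -47.5 to -9.15). Wnt7a was detected in 7 of 22 against 45 of 74 (-29.0 points) and Cd55 in 7 of 22 against 54 of 74 (-41.2 points). The assays lower by at least 25 points numbered 5 of 95 (5.26%): Epcam, Cdh1, Cd9, Cd55 and Wnt7a, with 2 of the 6 epithelial genes. Within the cells with both, more Tbx3 went with less Epcam, at a Spearman rho of -0.52 and a Pearson r of -0.62 between the Ct values of 12 cells, and with less Cdh1, at -0.39 and -0.45 in 15 cells. These cells share 1 chip and differ in total template. For Tbx3 and Gapdh the values were 0.27 and 0.42 over 22 cells.

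All 3 stroma-associated genes were higher by at least 25 points in cells with Tbx3, where 8 of 95 assays (8.42%) were. Hoxa11 was detected in 14 of 22 cells with Tbx3 and 15 of the other 74 (43.4 points, interval 20.2 to 61.6), Wnt5a in 15 of 22 against 25 of 74 (34.4 points) and Hoxa10 in 7 of 22 against 4 of 74 (26.4 points). Their summed level ran from 0 to 31.3 with a median of 10.3 in cells with Tbx3 and from 0 to 17.7 with a median of 0.21 in the others. The highest sums lay in cells with Tbx3, and 2 of those 22 cells held none of the 3 genes against 36 of the 74. Itga5, which encodes the alpha chain of a fibronectin receptor, was detected in 18 of 22 cells with Tbx3 and 36.5% of the others. Cd34 was detected in 17 of 22 against 32 of 74, which narrowed from 34.0 to 21.0 points when standardised for depth. Relative to Gapdh, the levels of Cdh1 (-2.78 cycles, n = 15 and 70 cells), Krt18 (-3.22) and Cd24a (-2.37) were lower in cells with Tbx3, and that of Krt8 differed by -0.32. Gapdh itself had a median Ct of 12.6 in cells with Tbx3 and 13.6 in the others. The Cdh1 difference was -2.15 cycles relative to actin and -1.19 with no reference gene. Among cells that detected Gapdh, actin and Hprt it was -1.77, with 9 Tbx3 cells.

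The cells with Tbx3 fell into 9 that held Eng and 13 that did not, and the difference between these small sets was not tested. Epcam was detected in 2 of the 9 cells with Eng and Tbx3, in 10 of the 13 with Tbx3 and no Eng (76.9%), in 2 of the 4 with Eng and no Tbx3, and in 60 of the 70 with neither (85.7%). Hoxa11 was detected in 7 of the 9, 7 of the 13, 0 of the 4 (up to 75.0% by counting error) and 15 of the 70. Wnt7a was detected in 0 of the 9 (up to 33.3%) and 7 of the 13. The median Ct of Cdh1 was 21.2 in the 6 cells with Eng and Tbx3 that detected it, 17.4 in 9 cells with Tbx3 and no Eng, and 17.3 in the 66 cells with neither. Relative to Gapdh, Cdh1 stood at -6.25 ± 2.28 cycles (SD, n = 9 cells) in cells with Tbx3 and no Eng, at -8.61 ± 1.44 (SD, n = 6 cells) with both and at -4.31 ± 1.67 (SD, n = 66 cells) with neither. Krt18 stood at -3.84 ± 3.72 (SD, n = 12 cells), -6.92 ± 2.11 (SD, n = 9 cells) and -1.84 ± 2.32 (SD, n = 65 cells) in the same order. Relative to Gapdh, cells with Tbx3 alone thus had mean Cdh1 and Krt18 levels between those of the others, with SDs that overlapped theirs. Without Gapdh as reference, their median Ct of Cdh1 was close to that of cells with neither gene. They detected a median of 62 assays against 52 with neither. Cdh1 was detected in 69.2% of them against 94.3% with neither, while their Epcam share was nearer to that of cells with neither gene.

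The 7 cells with Vim lacked Wnt7a and Pax2, which were also rare with Eng. Along with Cd55 they were detected in 0 of 7 cells (up to 42.9% by counting error), against 52, 43 and 61 of the other 89. Epcam was detected in 3 of 7 against 71 of 89 (-36.9 points, interval -64.9 to -3.45) and Cdh1 in 3 of 7 against 82 of 89 (-49.3 points, interval -76.6 to -16.3). In total 15 of 95 assays (15.8%) were lower by at least 25 points in cells with Vim, including 2 of the 6 epithelial and 2 of the 3 Müllerian genes, and 7 (7.37%) were higher, including Eng, Tbx3 and Mcam. With 7 cells each weighs 14.3 points, so such calls are easily reached. The reference gene Hprt was among the lower ones, in 2 of 7 cells with Vim against 62 of 89 (-41.1 points). Hprt was detected in 11 of 22 cells with Tbx3 against 53 of 74 (-21.6 points, or -31.0 standardised for depth) and in 7 of 13 with Eng against 57 of 83 (-14.8 points), and its part in the epithelial values was not tested. The assays nearest to Vim by phi were Itga1 (0.50, in 4 of 7 cells and 4.49% of the others), an integrin alpha chain gene, and Abcg2 (0.37, in 6 of 7 and 22.5%), a drug efflux pump gene, followed by Eng.

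**Figure D4:**
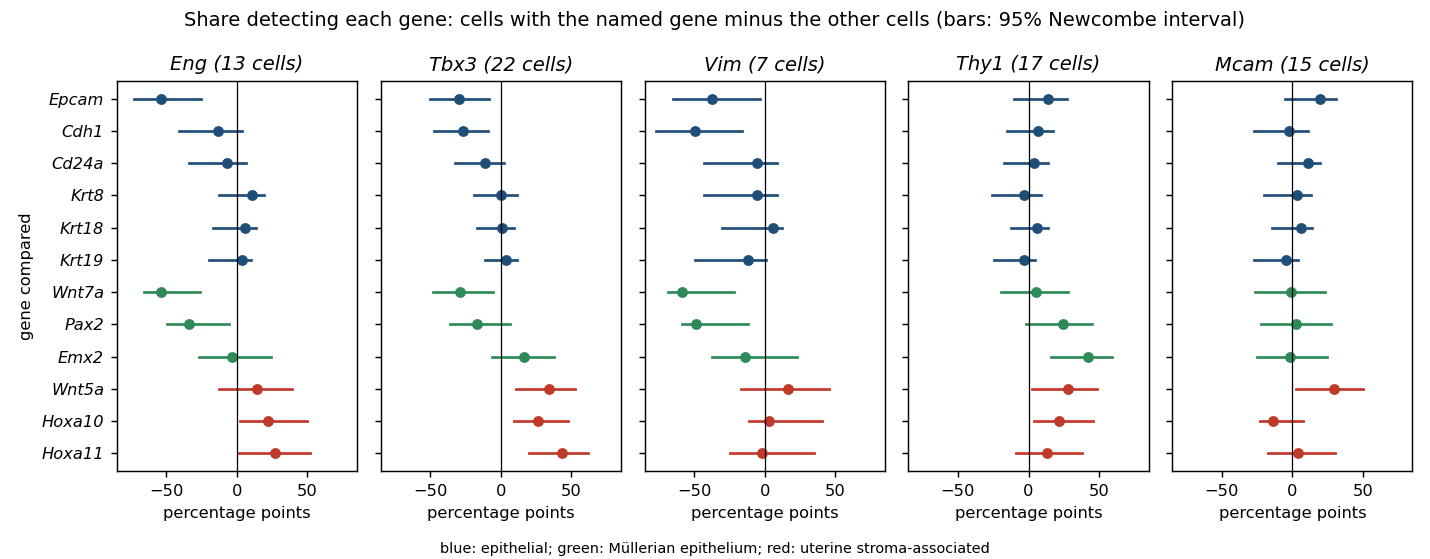
Difference in the share of cells detecting each epithelial (blue), Müllerian (green) and stroma-associated (red) gene between cells with the named gene and the other cells, in percentage points, with 95% Newcombe intervals. Epcam lies at -53.6 for Eng, -29.2 for Tbx3 and -36.9 for Vim, and at 13.6 for Thy1 and 19.3 for Mcam, whose intervals cross 0.

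Most cells with Thy1 detected Epcam, Cdh1 and Emx2. Epcam was detected in 15 of the 17 cells with Thy1 (88.2%) and 59 of the other 79 (74.7%), a difference of 13.6 points (interval -10.5 to 27.1), or 5.04 standardised for depth. Cdh1 was detected in 16 of 17 and Emx2 in 13 of 17 against 27 of 79 (42.3 points, interval 16.1 to 59.2). After depth was standardised the difference for Emx2 was 30.4 points. Stroma-associated genes were also found more often with Thy1: Wnt5a in 11 of 17 against 29 of 79 (28.0 points, interval 2.13 to 48.5) and Hoxa10 in 5 of 17 against 6 of 79 (21.8 points, interval 3.81 to 45.9). The summed level of the 3 stroma-associated genes had a median of 7.66 (0 to 31.3) in cells with Thy1 and 2.11 (0 to 19.9) in the others. The assays nearest to Thy1 by phi were Fzd10 (0.41, in 12 of 17 and 21.5% of the others), a Wnt receptor gene, Dpp4 (0.33, in 11 of 17), a cell surface peptidase gene, and Emx2 (0.33). Only Itga3, another integrin alpha chain gene, was lower by at least 25 points (1 of 95 assays, 1.05%), in 7 of 17 cells against 70.9%, and 11 (11.6%) were higher. The assay sma was found in 9 of 17 against 61 of 79, a phi of -0.21, and Kit, a receptor tyrosine kinase gene, in 12 of 17 against 69 of 79. Relative to Gapdh, Cdh1 differed by -0.62 cycles and Krt18 by -0.72 in cells with Thy1, within the SDs of 2.06 and 2.77.

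Mcam also lay in cells with Epcam. Epcam was detected in 14 of the 15 cells with Mcam (93.3%) and 60 of the other 81 (74.1%), a difference of 19.3 points (interval -5.33 to 31.1), and Krt18 and Cd24a were detected in 15 of 15. No assay was lower by at least 25 points (0 of 95, 0%) and 6 were higher (6.32%), among them Wnt5a (10 of 15 against 30 of 81). The summed stroma-associated level had a median of 7.43 (0 to 17.8) with Mcam and 2.27 (0 to 31.3) without. By phi the nearest were Foxa2 (0.32, in 4 of 15 cells and 3.70% of the others), a forkhead factor of uterine glands, Mst1r (0.25, in 8 of 15), a receptor tyrosine kinase gene, and Ptprc (0.24, in 13 of 15 against 44 of 81). Hoxa10, by contrast, was detected in 0 of the 15 cells with Mcam (up to 20.0% by counting error) and in 11 of 81. Cdh1 and Krt18 levels relative to Gapdh differed by -0.16 and -0.14 cycles. Of the endothelial genes, Pecam1 was detected in 15 of 15 at a median Ct of 15.2. Cd34 was detected in 9 of 15 against 40 of 81 (10.6 points, interval -15.9 to 33.4). The summed level of both genes was higher with Mcam, at a median of 17.1 (11.9 to 21.3) against 13.8 (0 to 21.8) in the others. The part of this in the Mcam values was not tested.

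The 3 cells that reached 3 of the 5 genes without Eng were unlike each other. Cell 60 (Tbx3, Thy1 and Mcam) detected 78 assays, the most of any cell, all 6 epithelial genes, and Gapdh at Ct 9.43. Cell 2 (Vim, Thy1 and Mcam) detected 30 assays, 4 epithelial genes, and Gapdh at Ct 18.3. Cell 82 (Tbx3, Vim and Mcam) detected 55 assays and 5 epithelial genes, with Epcam late at 24.8 and no Cdh1. Counting how many of the group a cell holds therefore brought together cells of very different template.

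Eng, Tbx3 and Vim were unevenly spread over the cell numbers. When the numbers 1 to 96 were read in runs of 12, the cells at positions 8 to 10 of a run (24 cells) held 9 of the 13 cells with Eng (37.5% of them against 5.56% of the other 72), 14 of the 22 with Tbx3 (58.3% against 11.1%) and 6 of the 7 with Vim (25.0% against 1.39%). Thy1 was at 12.5% and 19.4% and Mcam at 20.8% and 13.9%. Depth also varied with position, from a median of 31.5 assays at position 1 to 60.5 at position 8, and the median Gapdh Ct from 16.8 at position 1 to 10.9 at position 11. No source says whether a run of 12 was a row of the plate, the positions were chosen after the values were seen, and their part in the results was not tested.

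Outside positions 8 to 10 the 3 genes met in no cell, and only Eng and Tbx3 shared 1. At positions 8 to 10, Tbx3 was detected in 8 of 9 cells with Eng and 6 of 15 without it, a phi of 0.48, and at the other positions in 1 of 4 and 7 of 68, a phi of 0.11. Vim was found with Eng in 4 cells at positions 8 to 10 and in 0 elsewhere, where phi was -0.03, and with Tbx3 in 5 cells and 0, where phi was -0.04. The lack of Epcam in cells with Eng had the same direction in both sets of positions, with 3 of 9 against 11 of 15 cells at positions 8 to 10 and 1 of 4 against 59 of 68 elsewhere. For Tbx3, Epcam was detected in 7 of 14 against 7 of 10 and in 5 of 8 against 55 of 64. Hoxa11 was more frequent with Tbx3 in both, in 9 of 14 cells against 1 of 10 and in 5 of 8 against 14 of 64. At positions 1 to 6, where 3 cells with Tbx3 detected Cdh1, its level relative to Gapdh was 0.19 cycles higher than in the other cells and not lower.

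**Figure D5:**
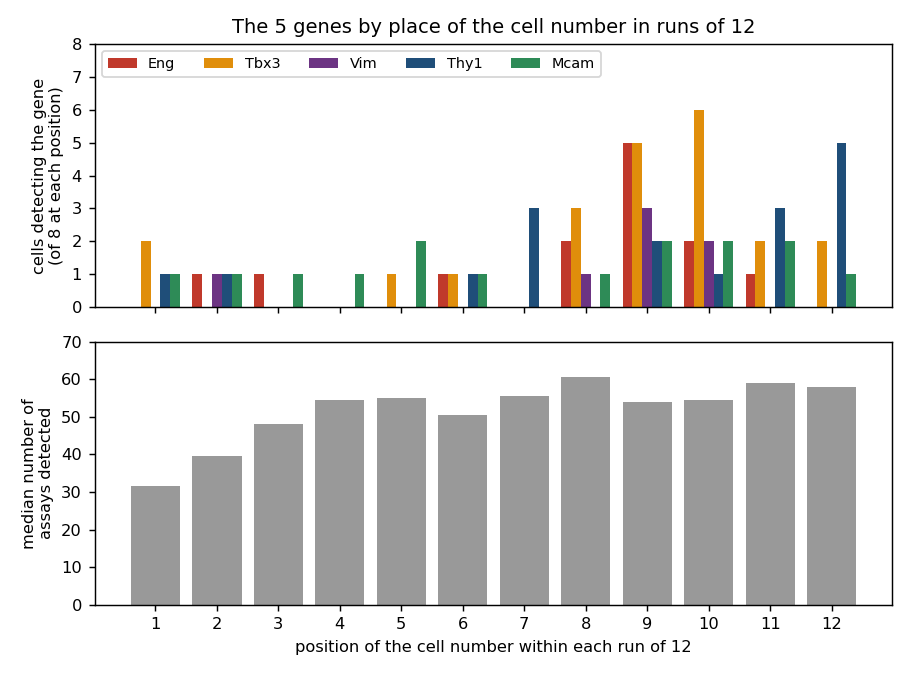
Number of cells detecting each of the 5 genes (top, of 8 cells at each position) and median number of assays detected (bottom) by the place of the cell number within runs of 12. Eng, Tbx3 and Vim peak at positions 8 to 10, while depth is lowest at position 1 with a median of 31.5 assays.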

How the data were processed

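The authors deposited a raw Ct table of 96 assays by 96 cells, not normalized per the file headers, in which 40 stands for no product (4320 values). They also deposited fold changes, a ratio to Gapdh and then to cell 1 per the file headers. Recomputed from Ct these differed by at most 6.55e-06 (log2), and they entered only the scale alternatives. Baseline, threshold and primers: not given in the sources used here.

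Assays were matched to RefSeq symbols (GRCm38.p6) by symbol, synonym or protein name. The 5 genes and all lists were chosen with earlier results of these data known. Named genes were the 5, the list genes and, for each of the 5, the 3 assays with the highest and the 3 with the lowest phi among those detected in 5 to 95% of cells, some of which are not reported here. Named cells detected Eng or at least 3 of the 5. Other assays, levels relative to Gapdh, summed levels and positions were added after the values were seen.

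Shares carry Clopper-Pearson and differences Newcombe 95% intervals. Differences were standardised over 3 equal sets of cells by detected assays, without the 5 genes and the 6 epithelial genes. No cell was removed as a doublet. Alternatives changed the Ct limit, the cells kept, the scale and the reference gene. The code for the share calls was checked on simulated data with more cells than here and with assays independent of each other. That check does not cover sets of cells as small as these. The tools were numpy 2.4.6, pandas 2.3.3 and scipy 1.17.1 under Python 3.11.15, and matplotlib 3.10.9.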

Additional observations from a re-analysis of the deposited data

How the results depend on the processing

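There were 142 recomputed values of the shares and of the differences in Epcam and epithelial genes. Of these, 129 moved by less than their error and 13 moved further. A share cannot be negative, so only the differences could change direction, and 0 of them did. The Epcam difference ran from -59.6 to -35.7 points for Eng, -44.9 to -9.09 for Tbx3, -72.0 to -18.0 for Vim, 4.31 to 21.0 for Thy1 and 4.20 to 20.0 for Mcam. The value of -72.0 came at a Ct limit of 24 with 3 Vim cells, and that of -9.09 at positions 1 to 6 with 4 Tbx3 cells. At a Ct limit of 24, Thy1 was in 10.4% of cells. Among the cells with Epcam, Eng was in 5.41%. At positions 1 to 6 of the runs of 12, Eng was in 6.25%, Tbx3 in 8.33%, Thy1 in 6.25%, Vim in 2.08%, at least 1 gene in 31.2% and at least 2 in 4.17%. At positions 7 to 12, Tbx3 was in 37.5%, Thy1 in 29.2%, at least 1 gene in 66.7% and at least 2 in 27.1%. The causes were not tested. Of 69 other values 58 stayed within the SD of the cells with the gene, which is a spread between cells and not an error of the difference. The 10 that moved were the mean levels of the 5 genes in other units, which had to differ. The 1 that reversed was the Cdh1 level in cells with Tbx3 at positions 1 to 6 (0.19 cycles, 3 cells). In cells with Eng the Cdh1 level stayed between -3.41 and -2.14, Krt18 between -4.22 and -3.12 and Hoxa11 between 3.94 and 6.95. Standardised for depth, assays called lower with Tbx3 rose from 5 to 11, and those called higher fell from 8 to 5 with Tbx3 and from 11 to 7 with Thy1. No paired analysis was possible because all cells belong to a single group. With 7 to 22 cells per gene, 1 cell moves a share by several points.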
